A study of Mus musculus with 4 samples.

Results

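The sort gates of the aorta-gonad-mesonephros (AGM) region that lacked Runx1(GFP), the Runx1- intra-aortic hematopoietic cluster (Runx1- IAHC) cells and the endothelial cells (ECs), were set against each other to describe which genes separate them beyond germ cell markers and globins. All genes listed at 10 TPM or more (TPM is the level of a gene after division by its length and by the size of its library) in the higher of both libraries were compared, which were 8936 of 51205 genes. Both gates came from mouse embryos at embryonic day 11 with a GFP reporter in the Runx1 locus. The labels give a wild-type genotype, and the supplement of the study describes pooled Runx1-GFP/GFP and Runx1-GFP/+ embryos, so the number of reporter copies in a library is not known. Runx1- IAHCs were sorted as NG2-PDGFRB-CD31+ckit+Runx1(GFP)- cells, whatever their CD45, and ECs as NG2-PDGFRB-CD31+ckit-CD45-Runx1(GFP)- cells. There was 1 library for each, so no difference below has a replicate check or a test, and by the study's account the Runx1- IAHC library came from far fewer cells. Whether this bears on the differences was not tested.

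The endothelium of the dorsal aorta holds the blood under pressure with claudins, cadherins and connexins at its junctions, anchors itself to a basement membrane of collagen and laminin, and reads VEGF, angiopoietin and Notch signals that set arterial identity. Part of it becomes hemogenic, switches on Runx1 and releases rounded ckit+ cells that gather in clusters on the aortic wall. Blood progenitors that leave the endothelium give up junctions and matrix and begin to divide, which calls on glycolysis, nucleotide synthesis and protein folding. Primordial germ cells, which pass close to the aorta on their way to the gonad, also carry ckit and CD31 on their surface.

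The gates were first checked against their genes. Kit, which encodes ckit, was at 62.1 TPM in Runx1- IAHCs and 9.69 TPM in ECs, and Pecam1, which encodes CD31, at 86.7 and 93.4 TPM. Runx1 was at 0.128 TPM in Runx1- IAHCs and 0.311 TPM in ECs, and Ptprc, which encodes CD45, had no read in Runx1- IAHCs. Each of the 9 endothelial markers was above 10 TPM in both libraries, with a summed level of 2072 TPM in Runx1- IAHCs and 1996 TPM in ECs, against 124 TPM in Runx1+ IAHCs and 301 TPM in hemogenic endothelial cells (HECs). Most of the sum in Runx1- IAHCs was Cldn5, so the near-equal sums do not hold for the markers as a set. Of the 9, 1 passed 4-fold downward and 0 upward (median -0.33). Of the 6 hematopoietic markers, 5 were in the table, with a sum of 46.2 TPM in Runx1- IAHCs and 41.8 TPM in ECs, against 1266 TPM in Runx1+ IAHCs. Of the 3 that reached 10 TPM, Coro1a and Vav1 passed 4-fold upward and 0 passed downward (median 2.43), while the sum stayed far below that of Runx1+ IAHCs. Runx1- IAHC stands here for the sort gate. All 7 germ cell markers were 4-fold or more above ECs, which 20.9% of all genes compared were, with a sum of 6179 TPM against 637 TPM in ECs. Globin genes took 0.0504% of the Runx1- IAHC library and 5.04% of the EC library, and mitochondrial genes 4.98% and 10.54%. Macrophage, mesenchyme and gonad somatic markers summed to at most 3.48 TPM in Runx1- IAHCs and 11.03 TPM in ECs. Megakaryocyte markers summed to 42.8 TPM in Runx1- IAHCs and 403 TPM in ECs. Sums of pericyte and smooth muscle markers were 5.69 and 21.9 TPM, and those of neural markers 7.77 and 41.8 TPM. The part of such RNA in the values of ECs was not tested. The epithelial adhesion gene Epcam was at 104 TPM in Runx1- IAHCs and 11.98 TPM in ECs, while the nephric markers Pax2, Pax8 and Cdh16 stayed under 1 TPM in both. Read depth recovered from the values was 17233031 reads in Runx1- IAHCs and 13188715 in ECs, which spread over 18835 and 23153 genes.

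Of the 8936 genes, 5915 were higher and 3021 lower in Runx1- IAHCs, and the median difference of log2(TPM + 1), Runx1- IAHC minus EC, was 0.71. The added 1 shrinks the difference of a gene at low level. A gene is said to pass 4-fold, upward or downward, where this difference reached 2 in either direction. Upward passed 1867 genes (20.9%) and downward 571 genes (6.39%), and these shares are the background for each list below. With the libraries scaled by their median ratio 1181 genes passed upward and 1020 downward, and relative to the median of all genes 923 and 1151, so the balance between the directions rests on the scaling. The 100 most abundant genes took 24.96% of the Runx1- IAHC library and 42.9% of the EC library. At 10 TPM or more in both libraries were 5430 genes, in Runx1- IAHCs alone 2369 and in ECs alone 1137. Just inside the threshold lay Adcy9 at 10.0002 TPM in Runx1- IAHCs and 0.936 TPM in ECs, and just outside it Mtr at 9.99 TPM in Runx1- IAHCs and 4.23 TPM in ECs. Across all genes compared the levels of both libraries had a Pearson r of 0.62 on the log2 scale and a Spearman rho of 0.58, which describe genes of 2 libraries and not replicates.

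**Figure D1:**
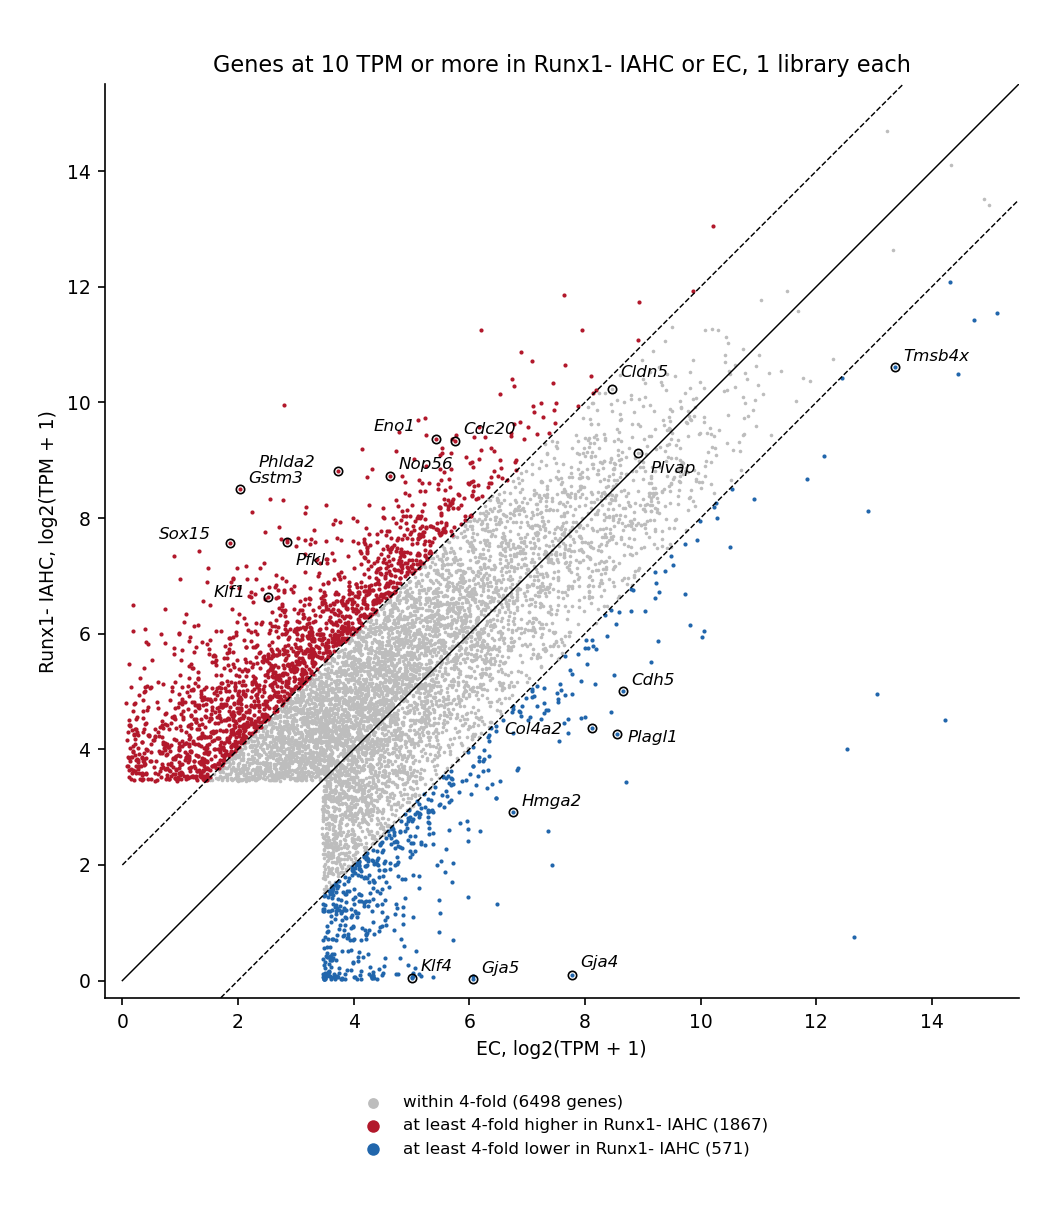
Level of each gene in the Runx1- IAHC library (vertical axis) against the EC library (horizontal axis), both as log2(TPM + 1), with 1 point per gene. Dashed lines mark 4-fold, red points the 1867 genes that passed it upward and blue points the 571 that passed downward in Runx1- IAHCs, and circled genes are described in the text.

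The gene lists separated along function. Arterial, flow response, matrix and endothelial surface genes lay mostly below the EC level in Runx1- IAHCs, whereas glycolysis, replication, nucleotide and proteasome genes lay above it. List medians are read against the median of all genes, 0.71. Some genes are members of several lists (Gja4 is both a junction and an arterial gene), so the lists are not independent of each other.

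**Figure D2:**
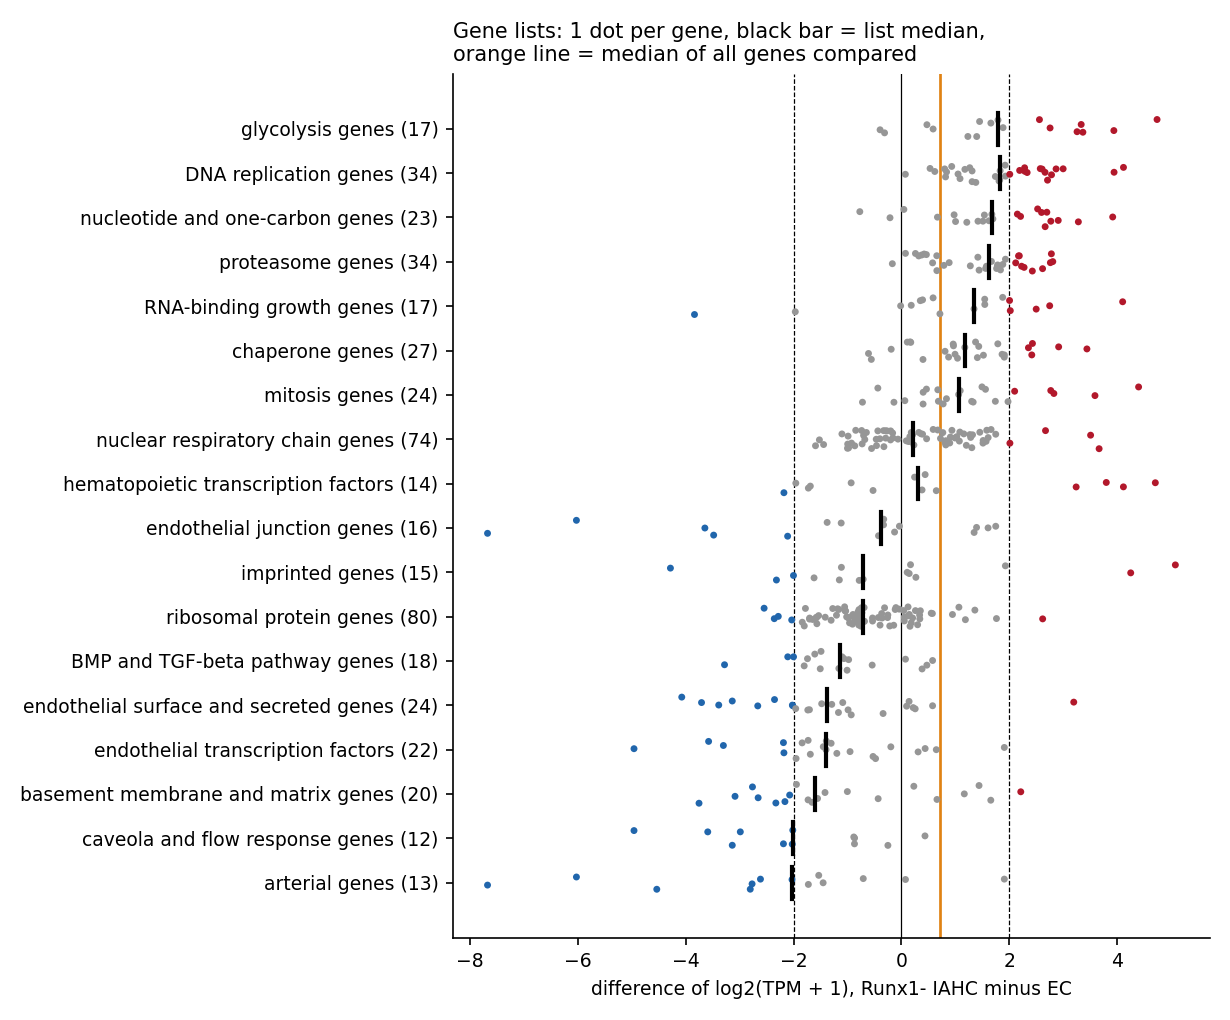
Difference of log2(TPM + 1), Runx1- IAHC minus EC, for the compared members of 18 gene lists (number in brackets), with 1 dot per gene and a black bar at the list median. The orange line is the median of all genes compared (0.71), and red and blue dots passed 4-fold upward and downward. The arterial median is -2.03 and that of the DNA replication genes 1.83.

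Of 16 endothelial junction genes compared, 12 were lower in Runx1- IAHCs, with 5 past 4-fold downward and 0 upward (median -0.38). The tight junction gene Cldn5 (GRCm38 chromosome 16, 18776847 to 18778260) was at 1196 TPM in Runx1- IAHCs and 355 TPM in ECs, 3.37-fold higher (95% counting interval 3.25 to 3.48). F11r, the junctional adhesion molecule A gene, was at 278 TPM in Runx1- IAHCs and 109 TPM in ECs, 2.56-fold higher (2.44 to 2.68). Esam was at 172 TPM in Runx1- IAHCs and 217 TPM in ECs. Against these stood the adherens junction gene Cdh5 (chromosome 8, 104101625 to 104144511), which encodes VE-cadherin, at 31.1 TPM in Runx1- IAHCs and 401 TPM in ECs, 12.9-fold lower (12.2 to 13.7). The gap junction genes of arterial endothelium were the extreme. Gja4 (connexin 37; chromosome 4, 127311421 to 127314039) had 0 reads in Runx1- IAHCs and 3084 reads (217 TPM) in ECs, at least 1131-fold lower when 3 reads are taken as the floor. Gja5 (connexin 40; chromosome 3, 96904693 to 97077416) had 0 reads in Runx1- IAHCs and 3177 reads (65.6 TPM) in ECs, at least 1165-fold lower. Cldn5 and F11r thus lay above the EC level and both connexin genes below it. Amotl2, which links junctions to actin, was at 1.13 TPM in Runx1- IAHCs and 22.9 TPM in ECs. Intervals and floors here cover counting error only, and not transcripts lost or copied unevenly before sequencing. A floor therefore bounds the ratio of reads and not that of transcripts in the cells. In bulk samples fewer cells of a type and less RNA per cell cannot be told apart.

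Of 24 endothelial surface and secreted genes compared, 8 passed 4-fold downward and 1 upward (median -1.39). The fenestral diaphragm gene Plvap was at 561 TPM in Runx1- IAHCs and 482 TPM in ECs, Ecscr at 401 and 364 TPM, the secreted factor gene Egfl7 at 231 and 194 TPM, and the TGF-beta co-receptor gene Eng at 84.7 and 56.5 TPM. These abundant endothelial transcripts were within 2-fold between the gates. The sialomucin gene Podxl, by contrast, was at 1.63 TPM in Runx1- IAHCs and 43.4 TPM in ECs, 26.9-fold lower (21.6 to 34.0), and Cd93 at 22.4 and 244 TPM, 10.9-fold lower (10.3 to 11.5). Emcn was at 121 TPM in Runx1- IAHCs and 397 TPM in ECs. The member that passed upward was Icam1, a leukocyte adhesion receptor, at 40.6 TPM in Runx1- IAHCs and 3.54 TPM in ECs. Among venous and lymphatic genes 1 of 9 passed 4-fold upward and 0 downward (median -0.96), and that gene was Pdpn, which encodes podoplanin, at 101 TPM in Runx1- IAHCs and 10.3 TPM in ECs.

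Receptors for endothelial growth factors were present in both gates. Tek, the angiopoietin receptor, was at 113 TPM in Runx1- IAHCs and 82.2 TPM in ECs, and Kdr, the main VEGF receptor, at 89.1 and 184 TPM. The VEGF co-receptor Nrp1 and the decoy receptor Flt1 were each 5.09-fold lower, at 9.66 and 7.75 TPM in Runx1- IAHCs and 49.2 and 39.4 TPM in ECs. The ligand gene Vegfc was at 5.11 TPM in Runx1- IAHCs and 48.9 TPM in ECs, 9.65-fold lower (7.95 to 11.8). In all, 3 of 11 genes of this list passed 4-fold downward and 0 upward (median -1.12), and 1 passed downward with a pseudocount of 5 TPM.

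Arterial genes were mostly lower in Runx1- IAHCs. Of 13 compared, 7 passed 4-fold downward and 0 upward (median -2.03). Efnb2, the arterial ephrin ligand, was at 1.71 TPM in Runx1- IAHCs and 62.1 TPM in ECs, 36.6-fold lower (30.2 to 44.7). The Notch ligand gene Jag1 was at 4.77 TPM in Runx1- IAHCs and 38.4 TPM in ECs, and the endothelial Notch receptor gene Notch4 at 2.78 and 22.2 TPM. With Gja4 and Gja5, these arterial genes all lay on the EC side. Sox17, a SoxF factor of arterial and hemogenic endothelium, went the other way, at 92.2 TPM in Runx1- IAHCs and 23.8 TPM in ECs, 3.87-fold higher (3.61 to 4.16). Its relatives Sox18 and Sox7 were at 113 and 28.6 TPM in Runx1- IAHCs and 280 and 97.2 TPM in ECs, so the SoxF genes did not share a direction. Each kept its sign under both other scalings.

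Genes of caveolae and of the response to shear stress were mostly lower in Runx1- IAHCs. Of 12 caveola and flow response genes, 7 passed 4-fold downward and 0 upward (median -2.02). Klf2 and Klf4 encode the transcription factors of the flow response. Klf2 was at 29.5 TPM in Runx1- IAHCs and 138 TPM in ECs, 4.69-fold lower (4.26 to 5.18). Klf4 had 0 reads in Runx1- IAHCs and 803 reads (31.3 TPM) in ECs, at least 294.5-fold lower in reads with the floor of 3 reads. Known KLF2 targets lay in the same direction. Nos3, the endothelial nitric oxide synthase gene, was at 2.37 TPM in Runx1- IAHCs and 28.7 TPM in ECs, and the anticoagulant receptor gene Thbd at 5.27 and 24.4 TPM. The vasoconstrictor gene Edn1, which laminar flow is known to repress, was at 9.02 TPM in Runx1- IAHCs and 78.6 TPM in ECs. Cav1, the caveola coat gene, was at 14.5 TPM in Runx1- IAHCs and 62.1 TPM in ECs, whereas Cav2 was at 18.9 and 13.7 TPM.

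All 22 endothelial transcription factors on the list reached 10 TPM in at least 1 gate, and 5 passed 4-fold downward and 0 upward (median -1.40), or 9 downward under both other scalings. Besides Klf2 and Klf4 these were Foxc1, at 0.812 TPM in Runx1- IAHCs and 20.6 TPM in ECs, the hypoxia factor gene Epas1, at 7.92 and 87.1 TPM, and Tal1, at 4.75 and 25.1 TPM. The ETS factor genes Erg (32.7 TPM in Runx1- IAHCs and 20.5 TPM in ECs) and Ets1 (62.6 and 50.3 TPM) and the homeobox gene Hhex (47.3 and 54.4 TPM) were within 2-fold. Etv2, which is not on that list and is the ETS factor that starts the endothelial and blood programme in the mesoderm, was at 34.5 TPM in Runx1- IAHCs and 2.26 TPM in ECs, 15.98-fold higher (10.1 to 26.9). On the TPM scale, transcripts of Erg, Ets1 and Sox17 thus stood near or above the EC level in a library low in Efnb2, Gja4 and Gja5. Of the 22 factors, however, 21 lay below the median of all genes, Erg and Ets1 among them, and 1, Sox17, lay above it.

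**Figure D3:**
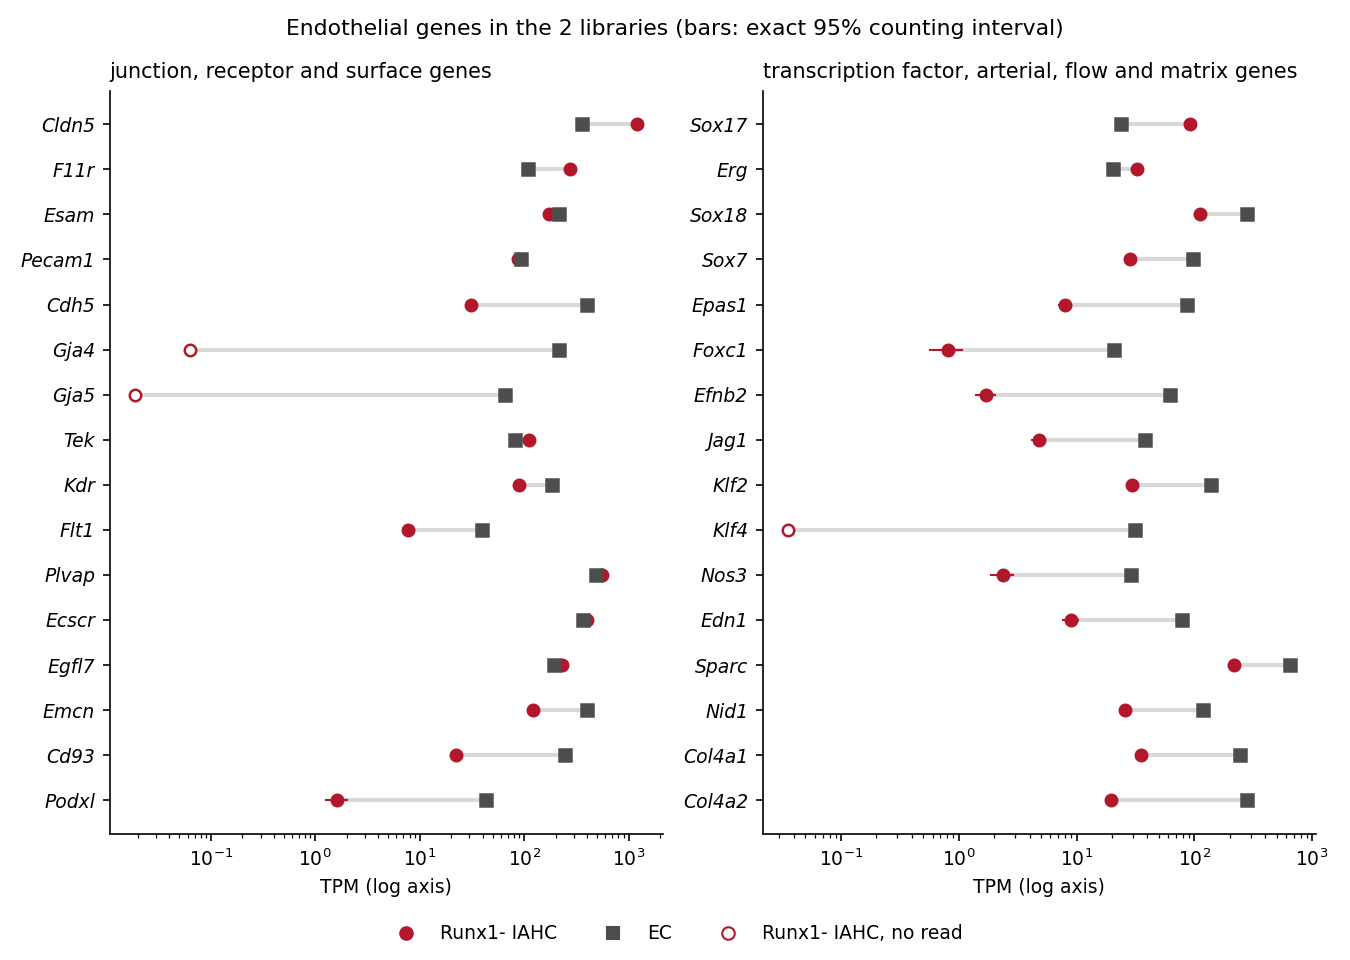
TPM (log axis) of 32 endothelial genes in the Runx1- IAHC library (red circles) and the EC library (grey squares), with exact 95% counting intervals as bars, which are mostly smaller than the symbols. Open circles mark Gja4, Gja5 and Klf4, which had no read in Runx1- IAHCs. Cldn5, F11r and Sox17 lie right of their EC values, and Cdh5, Podxl, Efnb2 and the collagen genes left of them.

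Basement membrane and matrix genes were also mostly on the EC side. Of 20 compared, 7 passed 4-fold downward and 1 upward (median -1.61), while 13 of 22 passed downward with scaling by the median ratio. The neighbouring genes Col4a1 and Col4a2, which encode the collagen IV chains of the basement membrane, were at 35.1 and 19.6 TPM in Runx1- IAHCs and at 244 and 278 TPM in ECs, 6.96-fold (6.67 to 7.27) and 14.2-fold lower (13.35 to 15.03). Nid1, which links collagen IV to laminin, was at 25.9 TPM in Runx1- IAHCs and 119 TPM in ECs, and the counter-adhesive protein gene Sparc at 219 and 645 TPM. Serpinh1, the collagen chaperone gene, was at 601 TPM in Runx1- IAHCs and 267 TPM in ECs, and Cyr61, a matricellular protein gene, at 118 and 24.7 TPM. Structural collagen genes and the chaperone gene thus lay on opposite sides. Of 18 BMP and TGF-beta pathway genes, 3 passed 4-fold downward and 0 upward (median -1.13), but 0 passed downward with a pseudocount of 5 TPM and 6 with scaling by the median ratio. The ligand gene Tgfb2 was at 0.652 TPM in Runx1- IAHCs and 15.1 TPM in ECs. Kitl, the ligand of ckit, was at 4.25 TPM in Runx1- IAHCs and 34.8 TPM in ECs. Its receptor gene Kit lay the other way, but the gates were sorted on ckit.

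Among hematopoietic genes, the erythroid and megakaryocytic regulators Klf1, Gfi1b, Gata1 and Nfe2 were higher in Runx1- IAHCs, while Tal1 and Lmo2 were lower. Of 14 transcription factors of this list, 4 passed 4-fold upward and 1 downward (median 0.31, which turns to -0.14 with the libraries scaled by their median ratio, where 4 passed each way). Klf1, the factor that drives adult globin genes, was at 98.5 TPM in Runx1- IAHCs and 4.73 TPM in ECs, 21.1-fold higher (16.3 to 27.9). Gfi1b was at 57.4 TPM in Runx1- IAHCs and 1.23 TPM in ECs, 49.1-fold higher (30.9 to 83.3), the erythroid factor gene Gata1 at 25.1 and 0.876 TPM, 30.3-fold higher (18.8 to 52.4), and Nfe2 at 14.8 and 0.675 TPM. Red cells and platelets share Gata1, Gfi1b and Nfe2 as regulators. Tal1 and its partner Lmo2, which the endothelium also uses, were lower, with Lmo2 at 38.1 TPM in Runx1- IAHCs and 125 TPM in ECs. Of 9 erythroid genes other than globins, 2 (22.2%, near the 20.9% of all genes) passed 4-fold upward and 1 downward (median 1.38).

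Genes used across blood lineages were mixed, with 4 of 11 past 4-fold upward and 1 downward (median 0.39, which turns to -0.08 with scaling by the median ratio and -0.13 with mitochondrial, ribosomal protein and globin genes left out). Ptpn6, the phosphatase SHP-1 of blood cells, was at 92.7 TPM in Runx1- IAHCs and 3.77 TPM in ECs, and Vav1, a guanine nucleotide exchange factor, at 14.6 and 0.611 TPM. Platelet and macrophage genes had no common direction. Of 3 megakaryocyte and platelet genes compared, 2 passed 4-fold downward and 1 upward. The platelet chemokine genes Pf4 and Ppbp were at 38.1 TPM and without a read in Runx1- IAHCs, and at 360 and 31.5 TPM in ECs, and the Fc receptor gene Fcer1g had 2 reads in Runx1- IAHCs and 131 in ECs. The macrophage genes Lyz2 and Fcgr3 passed upward, at 12.9 and 16.1 TPM in Runx1- IAHCs and 1.35 and 0.410 TPM in ECs. They were the only members that reached 10 TPM, and did so in Runx1- IAHCs alone, so the filter set their direction. Neither passed with a pseudocount of 5 TPM. At a minimum of 1 TPM, 6 macrophage genes were compared, with 2 past 4-fold upward and 1 downward (median -1.47). Globins moved with Pf4, Ppbp and Fcer1g, as given above, and their part in the values of ECs was not tested.

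Lists of DNA replication, glycolysis, nucleotide and proteasome genes had larger shares past 4-fold upward than the 20.9% of all genes. For proteasome genes this did not hold under either other scaling, as given below. Of 34 DNA replication genes, 14 passed 4-fold upward and 0 downward (median 1.83). All 34 had a higher value in Runx1- IAHCs, and 31 lay above the median of all genes. Mcm6, a subunit of the replicative helicase, was at 369 TPM in Runx1- IAHCs and 49.7 TPM in ECs, 7.43-fold higher (7.09 to 7.79), and 4 of the 5 Mcm subunits compared passed 4-fold. The clamp loader subunit gene Rfc5 was at 98.5 TPM in Runx1- IAHCs and 5.46 TPM in ECs, and Ung, which removes uracil from DNA, at 95.5 and 4.56 TPM, 21.1-fold higher (18.3 to 24.3). Of 13 G1 cyclin, CDK and inhibitor genes, 2 (15.4%, below that share) passed 4-fold upward and 0 downward (median 0.73). They were Ccne1 and Ccnd3, at 130 and 95.2 TPM in Runx1- IAHCs and 21.1 and 12.9 TPM in ECs. The germ cell markers were also higher in Runx1- IAHCs, as given above, and their part in these results was not tested.

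Mitosis genes followed unevenly. Of 24, 5 passed 4-fold upward and 0 downward (median 1.08, and 0.59 with scaling by the median ratio), a share at the background of 20.9%. Cdc20, the activator of the anaphase-promoting complex, was at 646 TPM in Runx1- IAHCs and 52.8 TPM in ECs, 12.3-fold higher (11.4 to 13.2). The cyclin gene Ccnb1 was at 169 TPM in Runx1- IAHCs and 23.9 TPM in ECs, the kinase gene Aurka at 177 and 24.1 TPM, the checkpoint gene Bub1b at 85.6 and 19.2 TPM and the kinesin gene Kif20a at 97.9 and 3.69 TPM. Cdk1 itself was at 74.2 TPM in Runx1- IAHCs and 101 TPM in ECs, and Top2a at 53.9 and 51.6 TPM. The 5 genes that passed thus stood apart from Cdk1, the kinase at the centre of the same network.

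Mitosis genes are known to share promoter elements, a CCAAT box and the cell cycle homology element TTTGAA. Promoters of 300 bases (250 before and 50 after the start, RefSeq, GRCm38.p6) were matched for 20 of the 24 genes. On either strand CCAAT was in 18 and TTTGAA in 15 of these, which is 90% and 75%, against 44.8% and 14.4% of the 5465 genes compared that had a promoter. Both were in 75% of the mitosis promoters and 6.35% of all. The motifs do not overlap in the promoters shown. Of the 28 replication promoters, 60.7% held CCAAT and 14.3% TTTGAA. The E-box (CACGTG), the cAMP element (TGACGTCA), the GATA motif (AGATAA), a sterol element and the NRF1 motif, which were searched too, were in at most 2 of the 20 mitosis promoters each. A match of letters describes the window and shows no binding. Both motifs were in 15 mitosis promoters, more than the 5 mitosis genes that passed 4-fold. Whether the motifs go with the differences was not tested. The promoters of Aurka, Bub1b and Cdc20, which hold both motifs and belong to genes that passed 4-fold upward, are shown 5′ to 3′ on the strand of the gene with both motifs in capitals (reversed matches included).
Aurka promoter (chr2:172370521-172370820, minus strand): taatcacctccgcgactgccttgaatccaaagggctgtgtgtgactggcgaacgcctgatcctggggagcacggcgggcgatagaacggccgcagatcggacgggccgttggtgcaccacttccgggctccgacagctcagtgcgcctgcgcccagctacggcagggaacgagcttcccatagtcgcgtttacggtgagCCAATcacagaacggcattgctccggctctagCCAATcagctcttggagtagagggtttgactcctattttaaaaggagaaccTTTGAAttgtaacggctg
Bub1b promoter (chr2:118597961-118598260, plus strand): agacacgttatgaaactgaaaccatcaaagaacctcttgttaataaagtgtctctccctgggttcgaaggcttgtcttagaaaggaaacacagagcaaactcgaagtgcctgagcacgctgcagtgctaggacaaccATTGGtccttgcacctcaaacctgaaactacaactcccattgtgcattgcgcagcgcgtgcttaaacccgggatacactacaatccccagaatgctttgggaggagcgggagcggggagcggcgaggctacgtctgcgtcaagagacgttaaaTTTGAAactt
Cdc20 promoter (chr4:118437294-118437593, minus strand): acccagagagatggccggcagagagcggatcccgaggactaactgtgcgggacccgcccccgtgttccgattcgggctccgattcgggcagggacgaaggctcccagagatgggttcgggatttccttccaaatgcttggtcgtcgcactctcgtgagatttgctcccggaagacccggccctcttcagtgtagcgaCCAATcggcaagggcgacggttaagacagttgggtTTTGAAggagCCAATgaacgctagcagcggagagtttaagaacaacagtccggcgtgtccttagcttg
In Aurka and Cdc20 a CCAAT box occurs 2 times and TTTGAA once, and in Bub1b the box stands reversed, as ATTGG.

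Of 17 glycolysis genes, 7 passed 4-fold upward and 0 downward (median 1.79). Pfkl, the liver-type phosphofructokinase at the committed step, was at 191 TPM in Runx1- IAHCs and 6.18 TPM in ECs, 31.0-fold higher (27.9 to 34.6). Further down the pathway Pgam1 was at 172 TPM in Runx1- IAHCs and 16.2 TPM in ECs, Eno1 at 661 and 42.1 TPM (its close copy Eno1b, which can take its reads, at 250.1 and 11.7 TPM) and Pkm at 1017 and 150 TPM. The lactate dehydrogenase gene Ldhb was 10.53-fold higher (9.68 to 11.5), and Ldha was at 673 TPM in Runx1- IAHCs and 286 TPM in ECs. Glucose carriers differed from each other. Slc2a3 was at 60.5 TPM in Runx1- IAHCs and 5.44 TPM in ECs, and Slc2a1 at 160 and 199 TPM.

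Nucleotide and one-carbon genes lay alongside, with 10 of 23 past 4-fold upward and 0 downward (median 1.68). The purine synthesis gene Gart was at 153 TPM in Runx1- IAHCs and 9.18 TPM in ECs, 16.7-fold higher (14.9 to 18.8), the pyrimidine synthesis gene Umps at 215 and 30.7 TPM, and the folate cycle genes Shmt1 and Mthfd1 at 122 and 89.5 TPM in Runx1- IAHCs and 11.7 and 11.1 TPM in ECs. Of 17 growth genes (ribosome assembly, Myc, Lin28, Igf2bp and Hmga families), 5 passed 4-fold upward and 1 downward (median 1.35), with 3 upward under both other scalings. Nop56, which guides ribosomal RNA modification, was at 425 TPM in Runx1- IAHCs and 23.8 TPM in ECs, 17.9-fold higher (16.7 to 19.2), and the growth regulator gene Myc at 132 and 31.7 TPM. The member that passed downward was Hmga2, a chromatin protein gene of growing embryonic tissue, at 6.56 TPM in Runx1- IAHCs and 107 TPM in ECs, 16.4-fold lower (14.8 to 18.2). Of 8 genes of the ATF4 stress response list, 4 passed 4-fold upward and 1 downward (median 1.83), with 1 upward when scaled by the median ratio. Asns, a target of the amino acid stress factor ATF4, was at 278 TPM in Runx1- IAHCs and 27.5 TPM in ECs, whereas the amino acid carrier gene Slc7a5 of the same list was at 6.63 and 39.2 TPM.

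**Figure D4:**
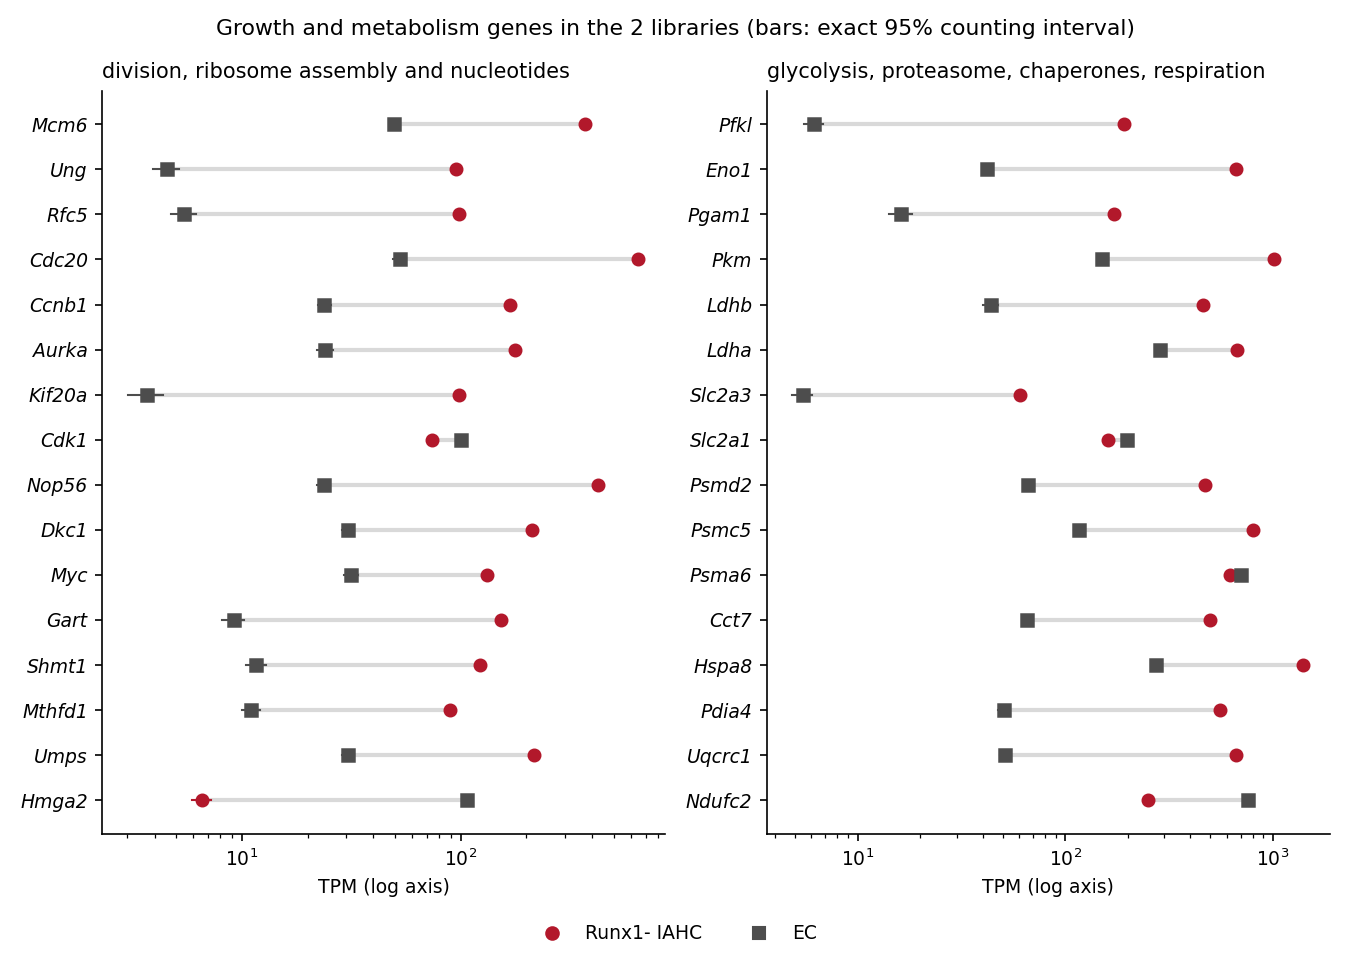
TPM (log axis) of 32 growth and metabolism genes in the Runx1- IAHC library (red circles) and the EC library (grey squares), with exact 95% counting intervals as bars. Most genes lie right of their EC values, Pfkl by 31.0-fold. Cdk1, Slc2a1 and Psma6 lie near them, and Hmga2 and Ndufc2 left of them.

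Proteasome genes were divided by subcomplex. Of 34, 10 passed 4-fold upward and 0 downward (median 1.62). With scaling by the median ratio 4 passed upward, beside 1181 of all 8901 genes. With mitochondrial, ribosomal protein and globin genes left out 5 did, beside 1588 of 10092. Both shares lay below those of all genes. When the list was divided into its parts, a step chosen after the values were seen, 9 of 19 genes of the regulatory particle (Psmc and Psmd) and 1 of 15 genes of the proteolytic core (Psma and Psmb) passed 4-fold upward, with medians of 1.93 and 0.58. Summed over its genes the regulatory particle was at 5239 TPM in Runx1- IAHCs and 1256 TPM in ECs, and the core at 7063 and 4279 TPM. Psmd2, a scaffold subunit gene of the regulatory particle, was at 470 TPM in Runx1- IAHCs and 66.3 TPM in ECs, whereas the core subunit gene Psma6 was at 623 and 701 TPM. Of 27 chaperone genes, 5 (18.5%, below the 20.9% of all genes) passed 4-fold upward and 0 downward (median 1.18). They were Pdia4 of the endoplasmic reticulum (557 TPM in Runx1- IAHCs and 50.4 TPM in ECs), the chaperonin subunit gene Cct7, Hspa8, Hspa14 and Hsph1.

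Not all abundant housekeeping genes followed. Of 74 nuclear genes of the respiratory chain, 4 passed 4-fold upward and 0 downward, with a median of 0.22 that turns to -0.24 with scaling by the median ratio. Uqcrc1, a core subunit of complex III, was at 661 TPM in Runx1- IAHCs and 51.1 TPM in ECs, 12.9-fold higher (12.3 to 13.6), and Ndufc2 of complex I at 251 and 760 TPM. Of 80 ribosomal protein genes, 1 passed 4-fold upward and 4 downward (median -0.72), or 14 downward with scaling by the median ratio. Among the 10 mitochondrially encoded protein genes compared, 3 passed 4-fold downward and 0 upward (median -1.22). Of the 10, 9, all but mt-Cytb, had a lower value in Runx1- IAHCs. Yet all 13 such genes, compared or not, summed to 41474 TPM in Runx1- IAHCs and 41412 TPM in ECs. The mitochondrial ribosomal RNA genes mt-Rnr1 and mt-Rnr2 were at 1443 and 2986 TPM in Runx1- IAHCs and 22382 and 35976 TPM in ECs. Mitochondrial genes and genes with processed copies are uncertain, since reads that match several copies are placed uncertainly. Processed pseudogenes were 1714 of the genes compared.

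Imprinted genes, which are expressed from 1 parental copy, differed by member. Of 15, 2 (13.3%, below the 20.9% of all genes) passed 4-fold upward and 3 (20%, against 6.39%) downward (median -0.71). Phlda2, a growth restrainer of the placenta, was at 448 TPM in Runx1- IAHCs and 12.3 TPM in ECs, 36.8-fold higher (30.6 to 44.7), and Snrpn, a splicing protein gene, at 238 and 11.5 TPM. Plagl1, a zinc finger gene of the imprinted network, was at 18.2 TPM in Runx1- IAHCs and 374 TPM in ECs, 20.6-fold lower (19.4 to 21.7), and the growth factor gene Igf2 at 195 and 979 TPM. TPM does not separate the parental copies.

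The cytoskeleton differed by member. Of 27 actin cytoskeleton genes, 1 passed 4-fold upward and 3 downward (median -0.21). Tmsb4x, which holds actin monomers, was at 1558 TPM in Runx1- IAHCs and 10567 TPM in ECs, 6.78-fold lower (6.68 to 6.88), and the intermediate filament gene Vim at 177 and 608 TPM. The monomer exchange factor gene Pfn1 was at 1708 TPM in Runx1- IAHCs and 508 TPM in ECs, and the crosslinker gene Actn4 at 137 and 26.4 TPM. Of 8 MHC and interferon response genes, 3 passed 4-fold upward and 2 downward (median 1.35). B2m and H2-D1, which encode parts of the class I antigen complex, were at 162 and 8.15 TPM in Runx1- IAHCs and 715 and 48.2 TPM in ECs. The interferon factor gene Irf1 of the same list was at 49.8 TPM in Runx1- IAHCs and 4.15 TPM in ECs. Of 11 p53 and Bcl2 family genes, 2 (18.2%, below the share of all genes) passed 4-fold upward and 0 downward (median 1.04). Bax, which opens the outer mitochondrial membrane, and its activator Bid were at 357 and 85.3 TPM in Runx1- IAHCs and 46.7 and 6.82 TPM in ECs, and the survival gene Mcl1 at 27.2 and 80.1 TPM.

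Germ cell list members and predicted genes aside, the genes at 100 TPM or more that were farthest above ECs were Gstm3 and Tdh. Gstm3, a glutathione transferase gene, was at 360 TPM in Runx1- IAHCs and 3.08 TPM in ECs, 120-fold higher (85.6 to 175). Tdh, the threonine dehydrogenase gene known from mouse embryonic stem cells, was at 171 TPM in Runx1- IAHCs and 1.497 TPM in ECs, 118-fold higher (83.3 to 172). Sox15, a SoxG transcription factor gene that those cells also express, was at 188 TPM in Runx1- IAHCs and 2.62 TPM in ECs and led the transcription factors. Tex19.1 and Fkbp6, both known from germ cells, were at 230 and 143 TPM in Runx1- IAHCs and 5.51 and 3.38 TPM in ECs. None of Gstm3, Tdh, Sox15, Tex19.1 and Fkbp6 exceeded 3.17 TPM in Runx1+ IAHCs or HECs. The ribosome assembly genes Rrp9 and Wdr18, at 199 and 182 TPM in Runx1- IAHCs and at most 6.97 TPM in ECs, were at 13.4 TPM or more in both of the others.

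At the other end, behind Gja4, lay Eid1, at 5.04 TPM in Runx1- IAHCs and 164 TPM in ECs, and Plagl1. The calcium-binding protein gene S100a11 was at 24.1 TPM in Runx1- IAHCs and 350 TPM in ECs, the actin-membrane linker gene Marcks at 57.9 and 611 TPM, and Hnrnpa0, an RNA-binding protein gene, at 22.1 and 207 TPM. Eid1, Hnrnpa0 and Ubqln2 have a single exon. No read in Runx1- IAHCs was found for 87 of the genes compared, and no read in ECs for 66. Those without a read in Runx1- IAHCs were led, after Gja4, by Gimap4, a GTPase gene of lymphoid cells (65.7 TPM in ECs), Gja5, the anterior-posterior patterning gene Hoxa5 (35.0 TPM) and the neuropeptide gene Nts (34.1 TPM). Without a read in ECs were Trh, a hormone precursor gene, at 43.3 TPM in Runx1- IAHCs, the homeobox genes Rhox2c and Rhox2f, whose close copies make their reads uncertain, and the nucleoside carrier gene Slc28a1 at 26.9 TPM.

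Alike in both gates, within 0.25 on the log2 scale, were abundant genes of translation and redox balance. Eef1a1, the elongation factor, was at 1445 TPM in Runx1- IAHCs and 1465 TPM in ECs, the nucleolar chaperone gene Npm1 at 1064 and 938 TPM, and the peroxiredoxin genes Prdx1 and Prdx2 at 748 and 551 TPM in Runx1- IAHCs and 709.5 and 530 TPM in ECs. Plvap was the one endothelial gene among the 10 most abundant of these. Since the median of all genes was 0.71, equal TPM places a gene below most others.

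The differences moved with base composition, which no rule had used. Protein-coding genes were divided into 10 equal bins by the GC content of their transcripts. The median difference was 0.11 in the bin lowest in GC and 1.36 and 1.05 in the highest bins, and 3.68% and 31.6% of genes in the first and last bin passed 4-fold upward. Across 6781 genes the Spearman rho was 0.24, a description of genes of the same libraries. For Runx1+ IAHCs minus HECs, which share no library with this comparison, rho was -0.07. Glycolysis genes had a median GC content of 52.8%, and arterial and flow response genes of 52.6% and 54.5%, against 49.6% for all protein-coding genes. Genes of a single exon had a median difference of 0.13 (n = 215), against 0.76 for genes with several. Along the exonic length of a gene, rho was -0.16 for Runx1- IAHCs minus ECs and 0.02 for Runx1+ IAHCs minus HECs. In the bins of the shortest and longest genes the median difference was 0.54 and 0.02. Of these genes 20.3% and 6.19% passed 4-fold upward. The parts of GC content and length in the differences were not tested.

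**Figure D5:**
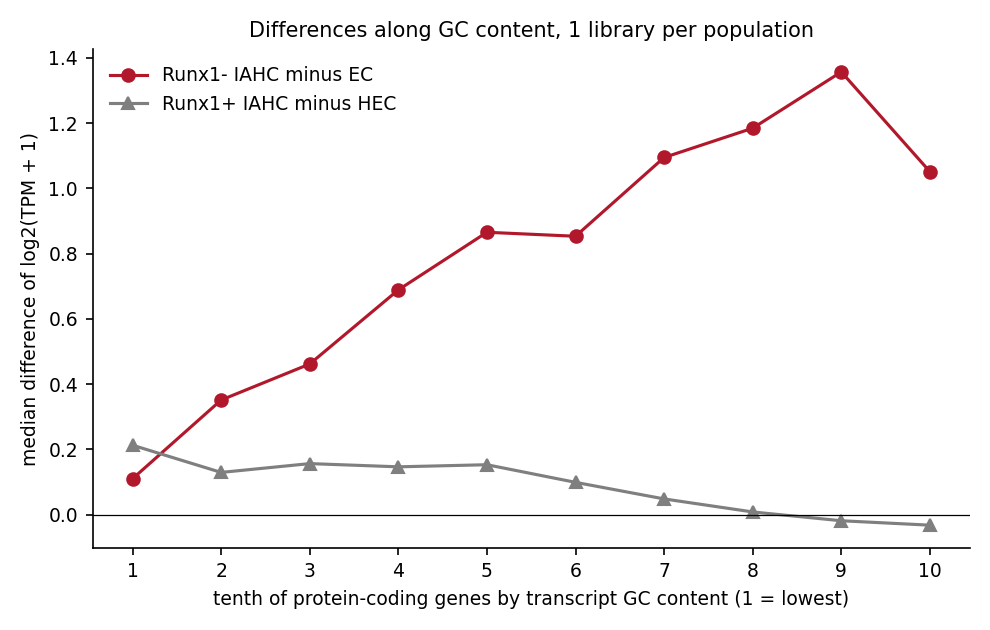
Median difference of log2(TPM + 1) of protein-coding genes in 10 equal bins of transcript GC content, for Runx1- IAHC minus EC (red circles) and for Runx1+ IAHC minus HEC (grey triangles), each from 1 library per population. The red line is at 0.11 in the first bin and highest, at 1.36, in the ninth, and the grey line lies between -0.03 and 0.21.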

How the data were processed

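RNA of sorted cells was sequenced by the authors with 1 library per population. Full-length cDNA was made by template switching, HISAT2 2.0.4 placed the reads on GRCm38, and union mode gave a read number per gene. The authors deposited TPM values on a linear scale. No value was 0, and the values were whole multiples of 1 step per library and gene length, as when 1 read is added to each gene. With exonic lengths of a later annotation release 49371 of 51205 genes (96.4%) came out whole within 0.01 reads. For the others, 684 of those compared (Cldn5, Ecscr, Epas1, Hhex, Kif20a, Gart and Pgam1 among those described), the length was searched, which returned the known length for 97.0% of 500 genes checked. Folds are ratios of recovered reads less the added read, with exact 95% Clopper-Pearson intervals (Poisson for levels). The difference of log2(TPM + 1) was used for counts and medians, and a floor of 3 reads where a library had none. The library kit does not mark strand, so overlapping genes share reads.

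The members and the 60 gene lists were chosen with earlier results of these data known. Named are list members, the 15 highest and 15 lowest genes at 100 TPM or more without germ cell, globin and predicted genes, the 8 highest and lowest transcription factors, 10 abundant alike genes and 6 genes each way without a read. Which of them are described was chosen after their values were seen. Some named genes are not reported here. From 9 columns of other populations in further sheets nothing was used. Calculations used Python 3.11.15, pandas 2.3.3 and scipy 1.17.1, and were checked on simulated libraries.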

Additional observations from a re-analysis of the deposited data

How the results depend on the processing

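With 1 library per gate no spread between replicates is known, and no library could be left out. No paired analysis was possible because the labels carry no replicate numbers and each group has 1 sample. The 4-fold counts depend on scale and filter. They were 1867 higher and 571 lower, and 1088 and 218 with a pseudocount of 5 TPM, 890 and 154 at a minimum of 50 TPM, and 1181 and 1020 with scaling by the median ratio. At a minimum of 1 TPM 1122 genes were lower, and with scaling that left out mitochondrial, ribosomal protein and globin genes 1588 were higher and 1057 lower, over 10092 genes. The median difference of all genes, 0.71, became 0.60 with a pseudocount of 5 TPM, 0.85 at a minimum of 50 TPM, 0.12 and 0.31 under these scalings, and -0.070 at a minimum of 1 TPM, where 21362 genes were compared, many near 1 read. Arterial genes at least 4-fold lower were 7, and 4 with a pseudocount of 5 TPM. At a minimum of 50 TPM, with fewer genes compared, 4 each of the arterial, flow response, matrix and surface genes were lower. Matrix genes lower were 13 with scaling by the median ratio and 11 without the genes left out. With scaling by the median ratio 9 replication and 4 proteasome genes were higher, and 5 proteasome genes without the genes left out. The other 4-fold counts of these lists stayed within 1.5 times. Of 135 named genes at least 4-fold apart, 113 remained so with a pseudocount of 5 TPM and 117 with scaling by the median ratio. Of those compared, 0 changed sign under each of the 7 alternatives, for which differences of this size left little room. Of all 327 named genes compared under these scalings, 36 changed sign with the median ratio. With mitochondrial, ribosomal protein and globin genes left out, 24 did.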

Other observations

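Tubulin, splicing and chromatin genes were divided within their lists. Of 12 tubulin genes, 5 passed 4-fold upward in Runx1- IAHCs and 0 downward (median 1.44). Among them were both gamma-tubulin genes, which nucleate microtubules at the centrosome. Tubg1 was at 180.1 TPM in Runx1- IAHCs and 24.2 TPM in ECs, and Tubg2 at 29.3 and 1.22 TPM. Of 48 splicing factor genes, 5 (10.4%) passed each way (median 0.52), against 20.9% upward and 6.39% downward of all genes. Snrpa, a component of the U1 particle, was at 162.6 TPM in Runx1- IAHCs and 33.0 TPM in ECs, whereas Srsf1, a general splicing activator, was at 24.3 and 115 TPM. Of 8 DNA methylation genes, 2 passed each way (median 0.29, which turns to -0.20 with scaling by the median ratio). Mbd3, a subunit of the NuRD complex, was at 276 TPM in Runx1- IAHCs and 35.2 TPM in ECs, and the demethylating enzyme gene Tet3 at 1.72 and 10.7 TPM. Of 15 Polycomb genes, 2 (13.3%) passed upward and 1 (6.67%) downward (median 0.19, and -0.27 with that scaling), the first share below that of all genes. Phf19, an accessory subunit of the repressive complex PRC2, was at 28.4 TPM in Runx1- IAHCs and 2.05 TPM in ECs, and the core subunit gene Suz12 at 4.54 and 22.5 TPM.

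Signalling genes showed the same mixture. Of 8 Notch pathway genes, 1 (12.5%, against 20.9% of all genes) passed upward and 3 (37.5%, against 6.39%) downward (median -1.53). The member that passed upward was Rfng, a glycosyltransferase gene that modifies Notch receptors, at 35.6 TPM in Runx1- IAHCs and 5.58 TPM in ECs. Of 10 Wnt pathway genes, 1 (10%) passed upward and 2 (20%) downward (median -0.41). Porcn, which lipidates Wnt ligands for secretion, was at 35.3 TPM in Runx1- IAHCs and 2.49 TPM in ECs, and the Wnt co-receptor gene Lrp6 at 1.78 and 11.4 TPM. Of 20 immediate early genes, 4 (20%, near the share of all genes) passed upward and 2 (10%) downward (median 0.67), and 0 and 2 with scaling by the median ratio. Ier2 was at 448 TPM in Runx1- IAHCs and 85.4 TPM in ECs, and its relative Ier5 at 0.625 and 16.5 TPM.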
